A study of Mus musculus with 4 samples.

Results

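The clustered histone genes were taken as every gene whose symbol begins with Hist1h, Hist2h, Hist3h or Hist4h, which gave 67 of the 24341 genes in the expression table. By the histone they encode, 6 were H1, 18 were H2A, 18 were H2B, 12 were H3 and 13 were H4 genes. By genomic cluster, 53 were Hist1 genes on mouse chromosome 13, 10 were Hist2 genes on chromosome 3, 3 were Hist3 genes on chromosome 11 and 1 was the Hist4 gene on chromosome 6. Polyadenylated RNA of CAD cells, a mouse neuronal line of the catecholamine type (Cath.-a-differentiated), was sequenced in 4 libraries. In both groups the cells were without serum for 5 days and carried no genetic change named in the labels. The ACSS2i group (2 libraries) received a quinoxaline urea that inhibits ACSS2, the enzyme that makes acetyl-CoA from acetate, at 20 µM for 24 h, and the DMSO group (2 libraries) received the solvent for 24 h. All libraries came from 1 cell line. Whether replicate libraries are separate cultures is not stated in the labels, and a p-value here therefore sets the difference against a spread that may be technical.

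Histones package DNA. An octamer of the core histones H2A, H2B, H3 and H4 forms the nucleosome, and the linker histone H1 sits where DNA enters and leaves it. The clustered genes are the main source of new histones while DNA is replicated. Their messenger RNAs are the known exception to polyadenylation: the transcript is cut just after a short stem-loop, which is bound by SLBP, and ends there with no poly(A) tail. Some clustered genes are also known to give a longer transcript that is polyadenylated at a site further on, mainly in cells that have stopped dividing. Selection for poly(A) RNA keeps the longer form and discards most of the short one, so the values below are those of whatever histone RNA came through that selection, and the amount of the short form was not measured here.

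The stem-loop sites of 4 genes are shown because the stem-loop marks where the transcript without a tail ends. Each is the stem-loop with 5 bases on either side, on the gene's own strand, from the GENCODE M21 transcript, and capitals mark the stem-loop. Hist1h1c, an H1 gene, and Hist3h2a, an H2A gene, had the highest mean of their class. Hist1h4i had the highest mean among the H4 genes. Hist2h2ac had the highest mean among the genes whose annotated transcript ends shortly after its stem-loop.
Hist1h1c: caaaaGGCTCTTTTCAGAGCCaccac
Hist3h2a: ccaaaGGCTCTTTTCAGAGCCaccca
Hist1h4i: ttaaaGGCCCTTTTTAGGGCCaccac
Hist2h2ac: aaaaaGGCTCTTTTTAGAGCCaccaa

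A match to the histone stem-loop pattern, 6 paired bases around a loop of 4, was found after the stop codon in the GENCODE models of 45 of the 67 genes. The commonest stem-loop sequence was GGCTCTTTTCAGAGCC, in 25 genes, followed by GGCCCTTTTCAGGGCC in 7 and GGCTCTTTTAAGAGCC in 6. Among 19891 protein-coding genes outside the clusters, 3 (0.0151%) held the pattern within 100 bases after the stop codon. Many of the models with no match end at or close to the stop codon, so no match there says only that the annotated transcript does not reach that far.

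Of the 67 clustered histone genes, 17 (25.4%) were detected at a mean of at least 1 FPKM (fragments scaled to transcript length and library depth) over the 4 libraries, against 47.2% of all genes in the table. The detected genes were 4 of 6 H1, 3 of 18 H2A, 5 of 18 H2B, 0 of 12 H3 and 5 of 13 H4 genes. The lowest value that the table gives is a floor of 0.01, and 17 genes (25.4%) stood at it in all 4 libraries, against 31.4% of all genes. These undetected genes were 0 H1, 5 H2A, 4 H2B, 6 H3 and 2 H4 genes. Another 15 genes lay above the floor in 1 library alone, which for 12 of them was DMSO replicate 1, the deepest library. The remaining 18 genes below a mean of 1 FPKM were above the floor in 2 or more libraries.

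**Figure D1:**
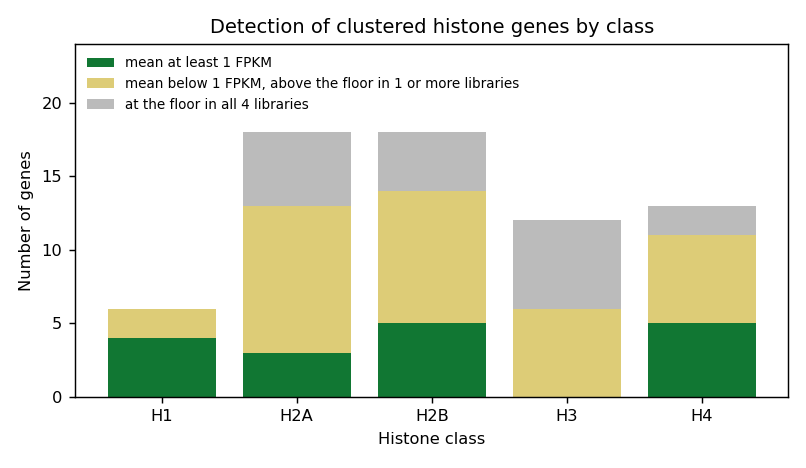
Number of clustered histone genes (vertical axis) in each histone class, split by whether the mean of the 4 libraries was at least 1 FPKM, was below 1 FPKM with a value above the floor in 1 or more libraries, or stood at the floor of 0.01 in all 4. H1 had 4 detected genes of 6 and none at the floor throughout, and H3 had 0 detected genes of 12.

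The number of genes at the floor was lowest in the deepest library and highest in the shallowest. It was 35 and 36 in ACSS2i replicates 1 and 2, against 23 and 46 in DMSO replicates 1 and 2. As shares of the clustered histone genes these were 52.2% and 53.7% in ACSS2i, against 34.3% and 68.7% in DMSO. Of all genes, 38.6% and 38.3% stood at the floor in ACSS2i, against 37.7% and 42.7% in DMSO. Within ACSS2i the order was not that of depth, since replicate 2 was the deeper. The relative depth, with DMSO replicate 1 as 1, was 0.675 and 0.857 in ACSS2i replicates 1 and 2 and 0.292 in DMSO replicate 2. All FPKM of a library came to 558458 and 675716 for ACSS2i and to 590549 and 590108 for DMSO. Genes of short RNAs took 6.59% and 7.49% of these sums in the ACSS2i libraries and 7.35% and 11.6% in the DMSO libraries. The neuronal label was checked with 17 markers, of which 14 had a mean of at least 1 FPKM, with Nefl, Nefm and Dbh below it. The summed level of these markers was 5500 and 4660 FPKM in the ACSS2i libraries and 8420 and 11600 FPKM in the DMSO libraries. Chgb, a granin of secretory granules, made up most of it, with 4450 and 2510 FPKM in the ACSS2i libraries and 6800 and 10000 FPKM in the DMSO libraries. Without Chgb the sum was 1050 and 2150 FPKM in the ACSS2i libraries and 1620 and 1600 FPKM in the DMSO libraries. The part of these levels in the results below was not tested. Among markers of astrocytes, oligodendrocytes, microglia, fibroblasts and endothelial cells, 2 oligodendrocyte markers had a mean of at least 1 FPKM, and the highest summed level of any of these sets was 5.18 FPKM in the ACSS2i libraries and 5.04 FPKM in the DMSO libraries.

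The detected genes fell into a few strong ones and a long tail. Hist3h2a, Hist1h1c, Hist2h2bb, Hist1h2bc and Hist3h2ba together made up 76.7% of the FPKM summed over all 67 genes. The 67 genes summed to 325 and 102 FPKM in ACSS2i replicates 1 and 2, against 375 and 256 FPKM in DMSO replicates 1 and 2. In ACSS2i replicate 2 the sum was thus 31.3% of that in ACSS2i replicate 1, and the mean was 213 ± 158 FPKM in ACSS2i and 315 ± 84.4 FPKM in DMSO (SD, n = 2 each). The ranges of the groups overlapped. As shares of all FPKM these sums were 0.0582% and 0.015% in the ACSS2i libraries, against 0.0635% and 0.0433% in the DMSO libraries. In bulk RNA, fewer cells that make a transcript and less of it per cell cannot be told apart.

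**Figure D2:**
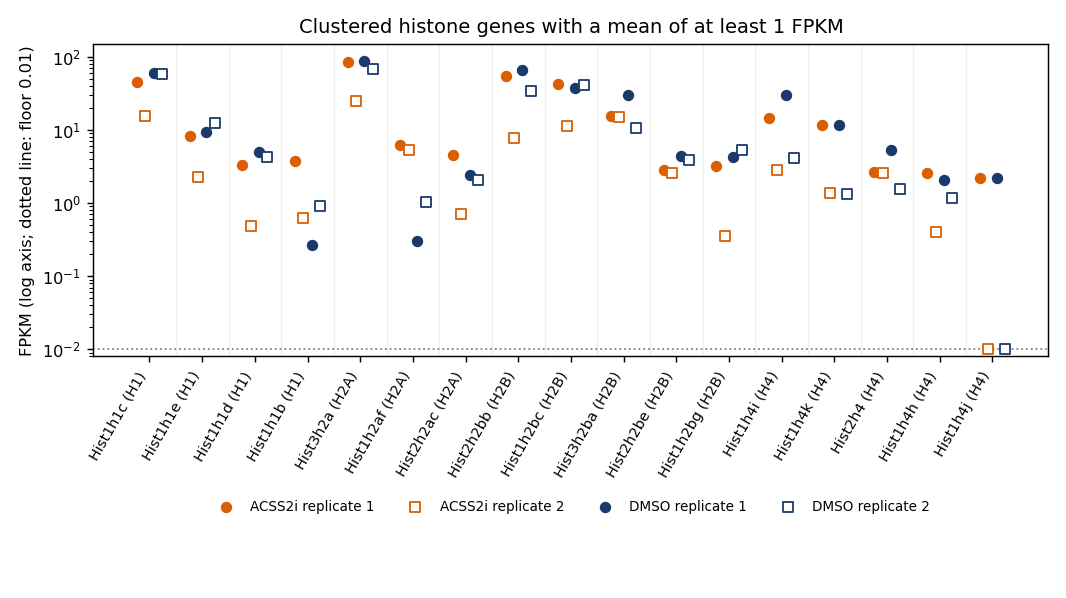
FPKM on a log axis for each of the 17 detected clustered histone genes, by gene and histone class, with 1 point per library (circles, replicate 1; open squares, replicate 2; orange, ACSS2i; blue, DMSO). ACSS2i replicate 2 is the lowest of the 4 points for 12 genes, and Hist1h2af is the only gene shown with both ACSS2i points above both DMSO points.

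The H1 genes encode the linker histone, and their summed level was 61.7 and 19.1 FPKM in the ACSS2i libraries, against 75.3 and 75.3 FPKM in the DMSO libraries. Hist1h1c (GRCm38, chr13:23738808-23740367, plus strand, 1 exon) gave 77.7% of that sum. It had 46.0 and 15.5 FPKM in the ACSS2i libraries, against 60.5 and 57.8 FPKM in the DMSO libraries. Both ACSS2i values lay below both DMSO values, and the lower one was ACSS2i replicate 2, at 33.8% of replicate 1. The mean was 30.8 ± 21.6 FPKM in ACSS2i and 59.1 ± 1.91 FPKM in DMSO (SD, n = 2 each), and the log2 fold change was -1.11 ± 0.49 (SE; limma adjusted p = 0.749). It was -0.35 with ACSS2i replicate 1 alone in that group and -1.86 with ACSS2i replicate 2 alone.

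The other detected H1 genes were Hist1h1e, Hist1h1d and Hist1h1b, each a separate H1 subtype. Hist1h1e had 8.38 and 2.25 FPKM in the ACSS2i libraries, against 9.24 and 12.3 FPKM in the DMSO libraries. Hist1h1d had 3.30 and 0.488 FPKM in the ACSS2i libraries, against 5.02 and 4.30 FPKM in the DMSO libraries. For both genes the groups did not overlap, ACSS2i replicate 2 was again the lowest library, and neither passed the test (log2 fold changes of -1.08 ± 0.51 and -1.16 ± 0.52, SE; limma adjusted p = 0.774 and 0.75). The GENCODE model of Hist1h1e overlaps that of Hist1h2be on the same strand at its far end, where reads could belong to either. The length that gave whole reads for Hist1h1e, 782 bases from its start, does not reach that overlap. Hist1h1b had 3.80 and 0.63 FPKM in the ACSS2i libraries, against 0.27 and 0.927 FPKM in the DMSO libraries. Its groups overlapped, because ACSS2i replicate 2 lay below DMSO replicate 2 (log2 fold change 0.84 ± 0.57, SE; limma adjusted p = 0.814). That order rests on few reads, since Hist1h1b had 19 and 4 reads in the ACSS2i libraries, against 2 and 2 in the DMSO libraries. The other 2 H1 genes, Hist1h1a and the testis-specific Hist1h1t, had means below 1 FPKM with every value at or below 1.

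The H2A genes were carried by Hist3h2a (chr11:58954685-58956830, plus strand), which gave 86.3% of their sum and had the highest mean of all 67 genes. Hist3h2a had 85.1 and 24.9 FPKM in the ACSS2i libraries, against 86.7 and 68.7 FPKM in the DMSO libraries. ACSS2i replicate 1 was level with the DMSO libraries and ACSS2i replicate 2 was the low one. The mean was 55.0 ± 42.6 FPKM in ACSS2i and 77.7 ± 12.7 FPKM in DMSO (SD, n = 2 each; log2 fold change -0.73 ± 0.56, SE; limma adjusted p = 0.832), and the log2 fold change was 0.14 with ACSS2i replicate 1 alone. Its GENCODE model overlaps Trim17 on the same strand. Hist2h2ac, the second H2A gene with a stem-loop shown above, had 4.50 and 0.709 FPKM in the ACSS2i libraries, against 2.43 and 2.08 FPKM in the DMSO libraries. The ACSS2i values lay on either side of the DMSO values (log2 fold change -0.085 ± 0.56, SE; limma adjusted p = 0.983).

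Hist1h2af (chr13:23533906-23534304, plus strand), the other detected H2A gene, had the opposite pattern. It had 6.30 and 5.32 FPKM in the ACSS2i libraries, against 0.304 and 1.04 FPKM in the DMSO libraries. Both ACSS2i values were thus above both DMSO values, with means of 5.81 ± 0.696 FPKM in ACSS2i and 0.673 ± 0.522 FPKM in DMSO (SD, n = 2 each). The log2 fold change was 2.06 ± 0.33 (SE), with an unadjusted p of 0.000842 and an adjusted p of 0.319 by limma, so it did not pass over all genes tested. It was 1.73 to 2.38 when each library was left out in turn. The values came to 14 and 15 reads in the ACSS2i libraries, against 1 and 1 read in the DMSO libraries, if the smallest step is 1 read. The exact 95% Poisson intervals were 7.65 to 23.5 and 8.40 to 24.7 reads in the ACSS2i libraries, against 0.0253 to 5.57 in each DMSO library, and cover counting error only. Of the 50-base windows of its transcript, 20.3% occur in no other GENCODE transcript, so its reads could be shared with near-identical H2A genes and its value is uncertain.

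Without Hist3h2a the remaining H2A genes had a log2 ratio of summed FPKM, ACSS2i over DMSO, of 0.64, against -0.34 with it. Hist1h2af was among them, with means of 5.81 FPKM in ACSS2i and 0.673 FPKM in DMSO and an uncertain value. The ratio without Hist1h2af as well was not computed, so 0.64 does not show that the other H2A genes were higher. The class sums were 102 and 33.5 FPKM in the ACSS2i libraries, against 97.9 and 73.9 FPKM in the DMSO libraries.

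The H2B genes had the largest class sum, 126 and 39.9 FPKM in the ACSS2i libraries, against 145 and 98.0 FPKM in the DMSO libraries, and it was spread over more genes. Hist2h2bb (chr3:96269752-96270132, plus strand) gave 39.8% of it. Hist2h2bb had 54.6 and 7.77 FPKM in the ACSS2i libraries, against 66.0 and 34.2 FPKM in the DMSO libraries. ACSS2i replicate 1 lay between the DMSO values and ACSS2i replicate 2 below them, at 14.2% of replicate 1 (log2 fold change -1.14 ± 0.85, SE; limma adjusted p = 0.826; 0.20 with ACSS2i replicate 1 alone). Of its 50-base windows 46.4% are unique to it, and its GENCODE model overlaps Gm42743 on the same strand. Hist1h2bc (chr13:23684199-23692908, plus strand) is unlike most clustered histone genes in having 2 exons, and its spliced model holds no stem-loop match. It had 42.6 and 11.4 FPKM in the ACSS2i libraries, against 37.0 and 40.7 FPKM in the DMSO libraries. ACSS2i replicate 1 was the highest of the 4 libraries and ACSS2i replicate 2 the lowest (log2 fold change -0.78 ± 0.57, SE; limma adjusted p = 0.824; 0.13 with ACSS2i replicate 1 alone).

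Hist3h2ba and Hist2h2be had ACSS2i replicates close to each other. Hist3h2ba, the H2B gene beside Hist3h2a, had 15.7 and 15.2 FPKM in the ACSS2i libraries, against 30.2 and 10.7 FPKM in the DMSO libraries. Here the spread was between the DMSO libraries, and the ACSS2i values lay between them (log2 fold change -0.21 ± 0.46, SE; limma adjusted p = 0.957). Hist2h2be, which encodes H2BE, a variant studied in mouse olfactory neurons, had 2.83 and 2.57 FPKM in the ACSS2i libraries, against 4.44 and 3.83 FPKM in the DMSO libraries. Its groups did not overlap, and its ACSS2i replicate 2 stood at 91.0% of replicate 1 (log2 fold change -0.47 ± 0.26, SE; limma adjusted p = 0.789; -0.56 to -0.39 when each library was left out in turn). Hist1h2bg had 3.20 and 0.360 FPKM in the ACSS2i libraries, against 4.32 and 5.29 FPKM in the DMSO libraries, also without overlap (log2 fold change -1.28 ± 0.54, SE; limma adjusted p = 0.734).

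The 2 strongest H4 genes differed between replicates in both groups. Hist1h4i (chr13:22040636-22041362, minus strand) had 14.4 and 2.83 FPKM in the ACSS2i libraries, against 29.9 and 4.16 FPKM in the DMSO libraries. Hist1h4k had 11.6 and 1.37 FPKM in the ACSS2i libraries, against 11.8 and 1.35 FPKM in the DMSO libraries. In both genes replicate 1 was several times replicate 2 in either group, and the difference between groups was smaller than that between replicates (limma adjusted p = 0.916 for Hist1h4i, log2 fold change -0.72 ± 0.97, SE). Of the 50-base windows of Hist1h4k 28.5% are unique to it. Hist2h4 had 2.65 and 2.61 FPKM in the ACSS2i libraries, between the 5.37 and 1.54 FPKM of the DMSO libraries. Hist1h4h had 2.58 and 0.406 FPKM in the ACSS2i libraries, against 2.09 and 1.19 FPKM in the DMSO libraries. For Hist2h4 the ACSS2i replicates were nearly equal, and for Hist1h4h the ACSS2i values lay outside the DMSO values on both sides. The weakest detected gene, Hist1h4j, had 2.18 FPKM and the floor in the ACSS2i libraries, against 2.21 FPKM and the floor in the DMSO libraries. At the floor it was below what 3 reads would give, which was 1.29 FPKM in ACSS2i replicate 2 and 3.78 FPKM in DMSO replicate 2. All 5 H4 genes overlapped between groups, the limma adjusted p of Hist2h4, Hist1h4h, Hist1h4j and Hist1h4k ran from 0.962 to 1.0, and their sum was 34.2 and 7.88 FPKM in the ACSS2i libraries, against 53.8 and 8.33 FPKM in the DMSO libraries.

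The H3 genes were the class with no detected gene. Their 12 values summed to 0.699 and 1.38 FPKM in the ACSS2i libraries, against 2.89 and 0.12 FPKM in the DMSO libraries, where a sum of 0.12 means every gene at the floor. Hist1h3d alone had a value above 1 FPKM. It had 1.60 FPKM in DMSO replicate 1, which was 6 reads, and the floor in both ACSS2i libraries and in DMSO replicate 2.

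Below a mean of 1 FPKM, 12 of the 50 genes had a value above 1 FPKM in some library: 7 H2A, 4 H2B and 1 H3 gene. Just under the limit were Hist1h2ae, with a mean of 0.997 FPKM, and Hist1h2be, with 0.982 FPKM, and just over it was Hist1h4j, with 1.10 FPKM. Hist1h2ae had 1.00 and 0.264 FPKM in the ACSS2i libraries, against 2.71 FPKM and the floor in the DMSO libraries. Hist1h2be had 1.38 and 0.322 FPKM in the ACSS2i libraries, against 1.11 and 1.12 FPKM in the DMSO libraries. The other 10 held at most 3.15 FPKM in any library. In Hist1h2bn, an H2B gene, the values were 3.15 and 0.413 FPKM in the ACSS2i libraries, against the floor in both DMSO libraries. Hist1h2ab, an H2A gene, had 1.58 and 0.621 FPKM in the ACSS2i libraries, against the floor in both DMSO libraries. Hist1h2bb, an H2B gene, had 1.66 and 0.654 FPKM in the ACSS2i libraries, against 0.280 FPKM and the floor in the DMSO libraries. All 3 genes thus had both ACSS2i values above both DMSO values, on at most 6 reads in a library. Hist1h1a and Hist1h4d had the same order of values, but on 1 read in each ACSS2i library and in DMSO replicate 1 and 0 in DMSO replicate 2, so that order restates the depth of the libraries. Going the other way, Hist1h2ai had the floor and 0.384 FPKM in the ACSS2i libraries, against 1.32 and 1.13 FPKM in the DMSO libraries. These were 0 and 1 reads in ACSS2i, against 4 and 1 in DMSO. The values of replicate 2 were thus 1 read in either group, and their order restates depth. Hist1h2ah, Hist1h2ac, Hist2h2ab, Hist2h2aa2 and the pseudogene Hist3h2bb-ps overlapped between groups and had their single value above 1 FPKM in 1 library each. Counting Hist1h1a and Hist1h4d, 5 of the 50 genes (10.0%) had both ACSS2i values above both DMSO values and 1 had both below, against 5.28% and 5.16% of the 12854 genes of the table that lie under this limit. At these read numbers the counts are a description only.

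The reads behind these values were few. FPKM values of short genes stood at whole multiples of a step set by library depth and gene length, and whole reads came out for 40 of the 50 genes above the floor with their RefSeq length, and for 4 more, Hist1h2af, Hist1h2bl, Hist1h2bn and Hist1h4d, as multiples alone. Of these genes, 30 had at most 6 reads in every library and 8 had more than 20 reads in some library. No whole reads came out for the other 6 genes above the floor: Hist1h2bc, Hist1h2be, Hist1h2bp, Hist1h4f, Hist2h2ab and Hist2h2be. The read sums below thus leave out Hist1h2bc, which had a mean of 32.9 FPKM. Hist1h1c had 203 and 87 reads in the ACSS2i libraries, against 395 and 110 reads in the DMSO libraries. Hist3h2a had 218 and 81 reads in the ACSS2i libraries, against 329 and 76 reads in the DMSO libraries. Hist2h2bb had 133 and 24 reads in the ACSS2i libraries, against 238 and 36 reads in the DMSO libraries. These counts are set by depth as well as by level: relative to DMSO replicate 1 the depth was 0.857 in ACSS2i replicate 2 and 0.292 in DMSO replicate 2. Over all genes with recovered reads there were 782 and 308 reads in the ACSS2i libraries, against 1373 and 287 in the DMSO libraries. Scaled to the depth of DMSO replicate 1, this was 1160 and 359 reads in the ACSS2i libraries, against 1370 and 984 reads in the DMSO libraries. Hist1h4i in DMSO replicate 2 rested on 3 reads, and Hist1h4k there on 1.

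**Figure D3:**
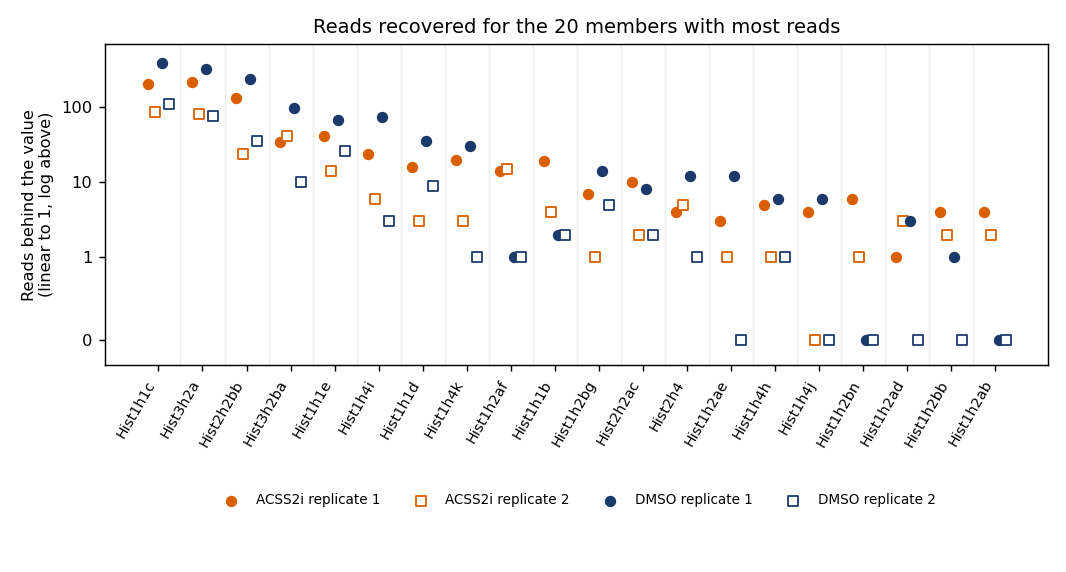
Reads behind the value in each library, on a scale that is linear to 1 and logarithmic above it, for the 20 genes with most reads among those whose whole reads were recovered (circles, replicate 1; open squares, replicate 2; orange, ACSS2i; blue, DMSO). Only Hist1h1c, Hist3h2a and Hist2h2bb exceed 100 reads in any library, and from Hist1h2af rightwards no gene exceeds 20.

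The lengths that gave whole reads were short: 725 bases for Hist1h1c and 508 bases for Hist3h2a, where the GENCODE M21 models have 1560 and 2146 bases. For Hist2h4 they were 384 bases against 1630, and for Hist1h1d 776 against 7425. Reads in the rest of those models were thus not counted for these genes. Of the 67 genes 31, of which 3 were detected, have fewer than 50% of their 50-base windows unique to them. Whole reads by length, as in Hist2h2bb and Hist1h4k, mean that their reads were not divided in fractions among copies. They do not show which copy the reads came from, since shared reads counted whole would give the same steps. For Hist1h2af, the third, whole reads did not come out by length, and a split among copies was not tested.

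Across the 17 detected genes, all of which were tested, 0 had a limma adjusted p under 0.05, against 3 of 11486 genes tested (0.0261%). At an unadjusted p under 0.05, 1 gene was higher in ACSS2i, Hist1h2af, and 0 were lower, against 3.29% higher and 3.67% lower among all genes tested. Both ACSS2i values lay above both DMSO values in 1 gene (5.88%), against 19.0% of all genes tested. They lay below both DMSO values in 5 genes (29.4%), Hist1h1c, Hist1h1d, Hist1h1e, Hist1h2bg and Hist2h2be, against 18.3% of all genes tested, and the other 11 overlapped. With a library left out, 1 value stands against 2, and groups that do not overlap are commoner among all genes. The count lower was 11 (64.7%) without ACSS2i replicate 1, against 37.0% of all genes tested, and 5 (29.4%) without ACSS2i replicate 2, against 36.8%. It was 5 (29.4%) without DMSO replicate 1, against 29.1%, and 12 (70.6%) without DMSO replicate 2, against 30.9%. The count higher was 1, 5, 4 and 2 in the same order of libraries left out (5.88%, 29.4%, 23.5% and 11.8%), each a smaller share than that of all genes tested (39.0%, 38.4%, 32.1% and 31.0%). At a mean of at least 5 FPKM, 8 clustered histone genes were kept, of which 0 were higher without overlap, against 19.6% of the genes kept, and 2 (25.0%) were lower, against 17.3%. Without a filter the counts were 6 higher and 6 lower of 67 (8.96% each), against 11.8% and 11.4% of all genes. The log2 fold change was below 0 in 14 of the 17, against 47.8% of all genes tested, with a median of -0.47, against 0.02 for all genes tested. The adjusted p ran from 0.319 to 1.0.

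That median depended on which libraries entered it. With ACSS2i replicate 1 alone in its group it was 0.14, with 7 of the 17 genes below the DMSO mean. With ACSS2i replicate 2 alone it was -1.21, with 15 of the 17 below. The medians over all genes tested were 0.009 and 0.013. Without DMSO replicate 1 the median of the 17 genes was -0.009, and without DMSO replicate 2 it was -0.89. Without a filter on low values, and so over all 67 genes, it was -0.006.

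**Figure D4:**
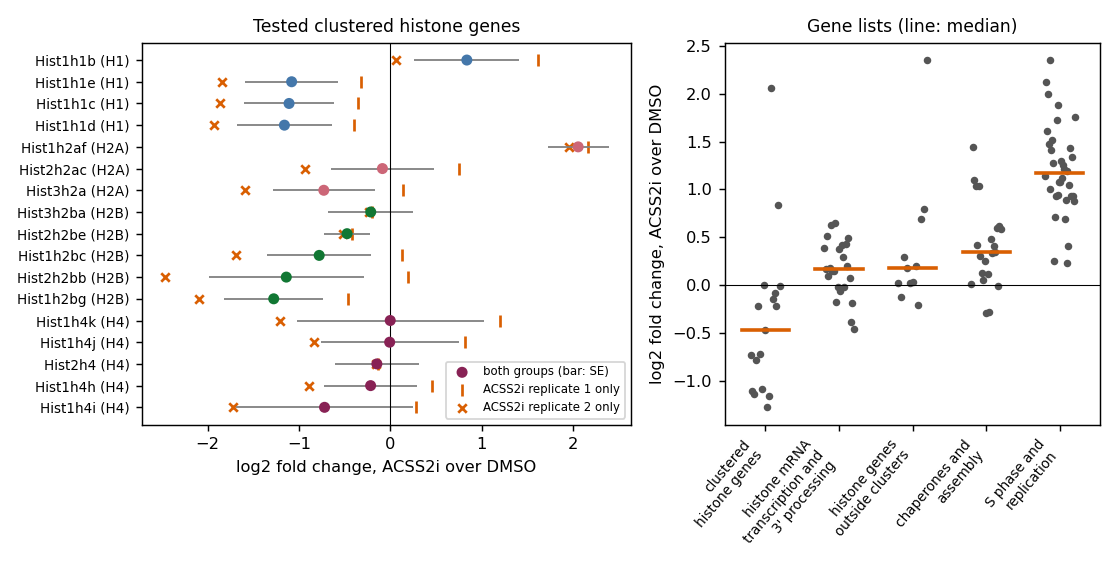
Left, log2 fold change on the log2(FPKM + 1) scale, ACSS2i over DMSO, of the 17 tested clustered histone genes (point and bar, value and SE from both groups), with the difference of ACSS2i replicate 1 alone (vertical tick) and of replicate 2 alone (cross) from the DMSO mean. Right, the same log2 fold change for each tested gene of 5 gene lists, with a line at the median, which is -0.47 for the clustered histone genes and 1.17 for S phase and replication.

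The 2 ACSS2i libraries differed from each other in the same direction in every detected gene. ACSS2i replicate 2 was below ACSS2i replicate 1 in 17 of 17, against 48.1% of all genes tested, and the median difference in log2(FPKM + 1) was -1.56, against 0.022 for all genes tested. It was the lowest of the 4 libraries for 12 of the 17 genes (70.6%), against 27.6% of all genes tested. Between the DMSO libraries, replicate 2 was below replicate 1 in 12 of 17, against 50.0% of all genes tested, with a median difference of -0.18. The differences in ACSS2i were not equal among genes. Hist2h4, Hist3h2ba, Hist2h2be and Hist1h2af in ACSS2i replicate 2 stood at 98.4%, 97.3%, 91.0% and 84.4% of replicate 1. Hist1h2bg and Hist1h4k stood at 11.3% and 11.8%. Some of these shares rest on few reads: in ACSS2i replicates 1 and 2, Hist2h4 had 4 and 5, Hist1h2bg 7 and 1 and Hist1h4k 20 and 3. With more reads, Hist3h2ba (34 and 42 reads) stood at 97.3%. Hist1h1c (203 and 87 reads) stood at 33.8% and Hist2h2bb (133 and 24 reads) at 14.2%. The upper quartile of FPKM over all genes tested was 29.0 and 31.1 in the ACSS2i libraries and 29.5 and 29.0 in the DMSO libraries, with ACSS2i replicate 2 the highest of the 4.

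**Figure D5:**
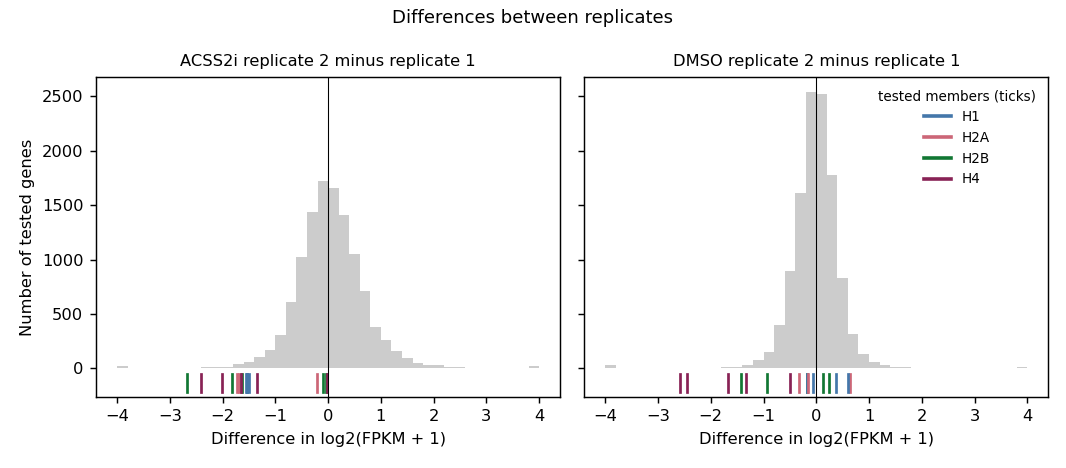
Difference in log2(FPKM + 1) between replicates 2 and 1, in ACSS2i (left) and DMSO (right), as histograms over the 11486 genes tested (grey; the end bars hold all values beyond the axis), with 1 tick below for each of the 17 tested clustered histone genes, coloured by class. In ACSS2i all 17 ticks lie below 0, with a median of -1.56, and in DMSO 12 of 17 do.

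Some clustered histone genes start close to another on the opposite strand. In 13 pairs the starts of 2 clustered histone genes on opposite strands lay 173 to 660 bases apart. Both genes had a mean of at least 1 FPKM in 1 pair, Hist2h2ac and Hist2h2be, 1 of them in 3 pairs and neither in 9. As only 25.4% of all 67 genes had such a mean, this low count is not a result about pairing. Hist1h2ac had 0.420 and 0.330 FPKM in the ACSS2i libraries, against 1.13 FPKM and the floor in the DMSO libraries, while Hist1h2bc, which starts 251 bases away, had a mean of 32.9 FPKM over the 4 libraries. Likewise Hist3h2bb-ps, annotated as a pseudogene 173 bases from the start of Hist3h2a, had a mean of 0.433 FPKM beside 66.3 FPKM for Hist3h2a.

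Detection was more frequent where the annotated transcript goes on past the stem-loop. Of 23 genes whose GENCODE model holds a stem-loop and at least 100 bases beyond it, 9 (39.1%) were detected. Of 22 whose model ends within 100 bases of the stem-loop, 2 (9.09%) were detected, and the highest mean among them was 2.43 FPKM, for Hist2h2ac, whose site is shown above. Taking genes with no match as well, by the bases after the stop codon, 11 of 27 genes with an extension (40.7%) and 6 of the other 40 (15.0%) were detected, with median levels of 0.473 and 0.183 FPKM. Hist1h1c, Hist3h2a and Hist1h2bc were among those with an extension, with 840 and 1643 bases after the stem-loop in Hist1h1c and Hist3h2a. Hist2h2bb was not, since its model ends at the stop codon. These shares are a description of annotation and level and were not tested.

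The promoters of 4 genes are shown: 3 of the highest, which were low together in ACSS2i replicate 2, and Hist1h2af, which was higher in both ACSS2i libraries. They run from 250 bases before to 50 bases after the start of transcription, on the gene's own strand, from RefSeq on GRCm38.p6, and capitals mark the motifs searched. The windows are chr13:23738557-23738856 for Hist1h1c, chr11:58954435-58954734 for Hist3h2a, chr3:96269450-96269749 for Hist2h2bb and chr13:23533625-23533924 for Hist1h2af, all on the plus strand.
Hist1h1c: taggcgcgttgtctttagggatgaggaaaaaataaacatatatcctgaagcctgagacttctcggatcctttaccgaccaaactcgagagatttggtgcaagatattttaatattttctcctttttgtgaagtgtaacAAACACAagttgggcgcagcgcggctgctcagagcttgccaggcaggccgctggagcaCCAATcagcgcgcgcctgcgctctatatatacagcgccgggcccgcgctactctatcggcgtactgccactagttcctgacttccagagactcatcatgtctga
Hist3h2a: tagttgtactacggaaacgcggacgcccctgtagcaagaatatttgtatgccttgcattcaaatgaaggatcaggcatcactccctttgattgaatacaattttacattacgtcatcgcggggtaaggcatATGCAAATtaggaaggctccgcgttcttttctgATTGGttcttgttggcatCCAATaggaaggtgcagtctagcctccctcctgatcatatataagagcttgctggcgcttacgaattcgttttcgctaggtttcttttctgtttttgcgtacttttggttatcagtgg
Hist2h2bb: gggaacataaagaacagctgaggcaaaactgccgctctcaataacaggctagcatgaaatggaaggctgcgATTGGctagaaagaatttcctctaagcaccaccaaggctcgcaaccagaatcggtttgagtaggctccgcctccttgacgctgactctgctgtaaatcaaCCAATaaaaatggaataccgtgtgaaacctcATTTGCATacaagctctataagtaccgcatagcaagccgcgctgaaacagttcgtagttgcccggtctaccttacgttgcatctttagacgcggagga
Hist1h2af: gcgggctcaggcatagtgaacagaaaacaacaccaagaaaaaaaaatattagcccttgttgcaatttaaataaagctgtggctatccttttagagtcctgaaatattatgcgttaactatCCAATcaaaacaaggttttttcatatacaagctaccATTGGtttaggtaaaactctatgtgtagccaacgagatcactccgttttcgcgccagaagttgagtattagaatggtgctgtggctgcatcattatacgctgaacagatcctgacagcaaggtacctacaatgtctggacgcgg

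The motifs searched, on both strands, were TATAAA, the TATA box, CCAAT, the CCAAT box, ATTTGCAT, the octamer known from H2B promoters, and AAACACA, an element known from H1 promoters. They can share end letters and each was counted on its own. A promoter was found for 61 of the 67 genes; Hist1h2bc, Hist2h2be, Hist2h4, Hist1h3a, Hist1h3f and Hist3h2bb-ps had none. TATAAA was in 57.4% of the 61, against 13.6% of 32851 promoters of the same length. CCAAT was in 85.2%, against 37.4%, and in every H1, H2A, H2B and H3 promoter but 25.0% of the H4 promoters. The octamer was in 21.3%, against 1.74%, and only in H2A (38.9%) and H2B (40.0%) promoters. It lay on the other strand in the H2A promoters and on the gene's own strand in the H2B promoters. Windows of genes that start close together on opposite strands overlap, so the same octamer can be counted for both. This was so for Hist1h2ae and Hist1h2bg, and the promoters counted are therefore not all separate sequences. AAACACA was in 14.8%, against 7.18%, and in 5 of the 6 H1 promoters.

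In the printed promoters CCAAT began 54 bases before the start in Hist1h1c and AAACACA 112 bases before it. Hist3h2a had CCAAT at 68 bases and, on the other strand, at 86, with the octamer on the other strand at 119. Hist2h2bb had CCAAT at 79 bases and, on the other strand, at 179, with the octamer at 48. Hist1h2af had CCAAT at 130 bases and, on the other strand, at 94. Between the 14 detected genes and the 47 others with a promoter, TATAAA was in 64.3% against 55.3%, CCAAT in 71.4% against 89.4%, the octamer in 28.6% against 19.1% and AAACACA in 28.6% against 10.6%. With 14 promoters these are descriptions only, and a match is not a bound site. The detected genes without CCAAT were all H4 genes: Hist1h4h, Hist1h4i, Hist1h4j and Hist1h4k. Those with AAACACA were all H1 genes: Hist1h1b, Hist1h1c, Hist1h1d and Hist1h1e. For both motifs, detection and histone class therefore cannot be told apart.

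Of a list of 25 genes that make, cut and bind histone messenger RNA, 23 were tested and 0 passed limma's adjusted threshold. At an unadjusted limma p under 0.05, 1 was higher and 0 were lower, against 3.29% and 3.67% of all genes tested. Among all genes tested, 47.8% had a log2 fold change below 0. Zfp473 lay below 1 FPKM, and the list's entry Symplk is a spelling that matched no gene symbol, so symplekin was not analysed here. By log2 fold change 16 stood higher and 7 lower in ACSS2i, with a median of 0.17, which was 0.040 without ACSS2i replicate 2 and 0.32 without ACSS2i replicate 1. Slbp, which binds the stem-loop, had 29.3 and 34.3 FPKM in the ACSS2i libraries, against 21.2 and 27.2 FPKM in the DMSO libraries (log2 fold change 0.39 ± 0.25, SE; limma adjusted p = 0.809). Npat, the coactivator of histone gene transcription at histone locus bodies, had 6.99 and 8.46 FPKM in the ACSS2i libraries, against 6.18 and 7.16 FPKM in the DMSO libraries. Hinfp, which activates H4 promoters, had 9.43 and 7.33 FPKM in the ACSS2i libraries, against 4.86 and 5.17 FPKM in the DMSO libraries, the smallest unadjusted p of the list (0.0415; limma adjusted p = 0.703).

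Lsm11, a subunit of the U7 particle that guides the cut, had 3.14 and 2.92 FPKM in the ACSS2i libraries, against 1.95 and 1.70 FPKM in the DMSO libraries. Its partner Lsm10 had 15.7 and 19.5 FPKM in the ACSS2i libraries, against 14.8 and 16.1 FPKM in the DMSO libraries. Cpsf3, the nuclease that makes the cut, had 27.8 and 34.2 FPKM in the ACSS2i libraries, against 16.2 and 22.9 FPKM in the DMSO libraries. Casp8ap2, which joins the histone locus body, had 7.08 and 7.21 FPKM in the ACSS2i libraries, between the 5.41 and 8.01 FPKM of the DMSO libraries. Eri1, an exonuclease that degrades histone messenger RNA, had 24.7 and 33.8 FPKM in the ACSS2i libraries, against 20.5 and 22.1 FPKM in the DMSO libraries. The limma adjusted p of these 5 genes ran from 0.727 to 0.966, and Casp8ap2 turned its direction when a library was left out, with a log2 fold change of -0.15 without DMSO replicate 1.

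Histone genes outside the clusters were not lower in ACSS2i replicate 2 by their median. Of 12 listed, 11 were tested and 0 passed limma's adjusted threshold. At an unadjusted limma p under 0.05, 2 were higher and 0 lower, against 3.29% and 3.67% of all genes tested. By log2 fold change 9 stood higher and 2 lower, with a median log2 fold change of 0.18; it was -0.081 with ACSS2i replicate 1 alone and 0.39 with replicate 2 alone. H1f0, the linker histone of cells that have stopped dividing, had 181 and 155 FPKM in the ACSS2i libraries, against 79.7 and 135 FPKM in the DMSO libraries. H1fx had 42.7 and 50.6 FPKM in the ACSS2i libraries, against 21.0 and 33.1 FPKM in the DMSO libraries. Cenpa, the H3 variant of centromeres, had 2.03 and 10.0 FPKM in the ACSS2i libraries, against the floor and 0.270 FPKM in the DMSO libraries. H2afv had 10.0 and 11.6 FPKM in the ACSS2i libraries, against 10.4 and 7.04 FPKM in the DMSO libraries. None of these 4 passed (limma adjusted p = 0.78 for H1f0, 0.678 for H1fx, 0.507 for Cenpa and 0.855 for H2afv).

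Histone chaperones, which carry new histones to DNA, gave 21 tested genes of 21, with 0 past limma's adjusted threshold. At an unadjusted limma p under 0.05, 4 were higher and 0 lower, against 3.29% and 3.67% of all genes tested. By log2 fold change 18 stood higher and 3 lower, with a median of 0.35, which was 0.53 without ACSS2i replicate 1 and 0.56 without DMSO replicate 2. Asf1b, an H3 and H4 chaperone, had 3.71 and 5.32 FPKM in the ACSS2i libraries, against 1.25 and 0.781 FPKM in the DMSO libraries (limma adjusted p = 0.458). Hat1, which acetylates new H4, had 49.8 and 52.2 FPKM in the ACSS2i libraries, against 21.5 and 27.6 FPKM in the DMSO libraries (limma adjusted p = 0.484). Chaf1a and Chaf1b, subunits of chromatin assembly factor 1, had log2 fold changes of 1.10 ± 0.35 and 1.03 ± 0.33 (SE; limma adjusted p = 0.609 and 0.618).

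All 34 genes of an S phase and DNA replication list stood higher in ACSS2i by log2 fold change, with a median of 1.17, against 0.02 over all genes tested. By limma 0 passed the adjusted threshold. At an unadjusted limma p under 0.05, 29 were higher and 0 lower, against 3.29% and 3.67% of all genes tested. The list was chosen with earlier results of these data known. Mcm10, a factor in starting replication, had 10.8 and 7.46 FPKM in the ACSS2i libraries, against 1.01 and 0.910 FPKM in the DMSO libraries (limma adjusted p = 0.259). Lig1, the ligase of lagging-strand fragments, had 15.0 and 19.4 FPKM in the ACSS2i libraries, against 5.80 and 5.54 FPKM in the DMSO libraries (limma adjusted p = 0.32). Rrm2 and Mcm5, a ribonucleotide reductase subunit and a helicase subunit, had log2 fold changes of 1.88 ± 0.35 and 2.00 ± 0.42 (SE; limma adjusted p = 0.393 and 0.458). The median of this list was 0.91 with ACSS2i replicate 1 alone and 1.42 with replicate 2 alone, where the 17 clustered histone genes had 0.14 and -1.21. The difference between the lists was not tested.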

How the data were processed

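RNA sequencing was done on 4 libraries of polyadenylated RNA, made with the ScriptSeq v2 kit and run on 1 NextSeq 500 lane, per the labels' protocols. Tools listed in the submitters' processing notes are STAR 2.3.0, Cufflinks 2.2.1, Cuffdiff and bcl2fastq 02.14.01.07, with the build mm10; the annotation, the scaling and the adjustment that the table's name mentions are not given in the sources used here. Values as deposited were taken as FPKM, since the header names no unit and those notes name Cufflinks, and their lowest value is 0.01. Of 24341 genes, 24340 had 4 numbers.

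The 11486 genes that averaged at least 1 FPKM were tested on log2(FPKM + 1) with limma 3.58.1 in R 4.3.3 (ACSS2i against DMSO, moderated, mean-variance trend, two-sided) and p-values were adjusted by Benjamini-Hochberg over all of them, with 0.05 as the threshold; the script was tested on simulated data. A log2 fold change on this scale is too small for low genes. All 17 members with a mean of at least 1 FPKM are named, with those below it that have a value above 1 FPKM, 6 fixed processing genes and up to 4 genes of each list with the smallest p. The members and lists were chosen with earlier results of these data known.

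Reads were recovered from the FPKM steps as value times relative depth times RefSeq span less 207 bases, fitted over members; a value within 0.04 reads or 0.3% counted as whole. Relative depth was the commonest ratio to DMSO replicate 1 among low genes. A depth or step wrong by a whole factor would scale them. Since this fit covers short genes only, no count test was run. Coordinates, stem-loops and 50-base windows come from GENCODE M21 (GRCm38, the mm10 build), and promoters from RefSeq on GRCm38.p6. Alternatives were pseudocounts of 0.1 and 5, no filter, a mean of at least 5 FPKM, quantile and upper quartile scaling, a replicate block, and each library left out.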

Additional observations from a re-analysis of the deposited data

How the results depend on the processing

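No clustered histone gene passed an adjusted p of 0.05 by limma in any setting tried; the lowest adjusted p of a named gene was 0.102, and at an unadjusted p under 0.05 there was 1, Hist1h2af, with the settings of the report. The number of all genes called was 3, against 6 and 0 with pseudocounts of 0.1 and 5, 0 when no gene was filtered out and, with a library left out, 13 and 16 without ACSS2i replicates 1 and 2 and 26 and 21 without DMSO replicates 1 and 2. A fit that leaves out a library assumes that the lone library varies like the other group, and takes its spread from that group. With a replicate block 8 genes were called, 0 of them clustered histone genes; same-numbered libraries had a correlation of deviations of -0.0165 over 11486 genes, so the numbers were not shown to pair the libraries.

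The count of clustered histone genes with both ACSS2i values above both DMSO values was 1, against 6 of 67 without a filter, where genes on few reads enter (8.96%, against 11.8% of all genes), 0 of 8 at a mean of at least 5 FPKM (against 19.6%) and 1 to 5 of 17 with a library left out (against 31.0% to 39.0%). The count with both below was 6 of 67 without a filter (against 11.4%), 2 of 8 at a mean of at least 5 FPKM (against 17.3%) and 5 to 12 of 17 with a library left out (against 29.1% to 37.0%). Their median log2 fold change of -0.47 ran from -1.21 without ACSS2i replicate 1 to 0.14 without ACSS2i replicate 2, and was -0.60 and -0.25 with pseudocounts of 0.1 and 5, -0.75 at a mean of at least 5 FPKM, and -0.45 and -0.50 with quantile and upper quartile scaling. Single genes whose direction turned were Hist1h4j (0.002 with upper quartile scaling), Hist1h4k (-0.003 with a pseudocount of 5 and -0.016 with upper quartile scaling) and Hist2h2ac (0.022 with a pseudocount of 5), all near 0.

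Leaving out a library turned 14 of 68 values in 10 of the 17 genes. The ranges were -1.69 to 0.13 for Hist1h2bc, -0.89 to 0.46 for Hist1h4h, -2.01 to 0.57 for Hist1h4i, -0.84 to 0.83 for Hist1h4j, -1.22 to 1.22 for Hist1h4k, -0.93 to 0.76 for Hist2h2ac, -2.47 to 0.20 for Hist2h2bb, -0.81 to 0.52 for Hist2h4, -1.59 to 0.14 for Hist3h2a and -0.92 to 0.50 for Hist3h2ba, and -0.15 to 0.35 for Casp8ap2. Log2 ratios of the class sums ran from -1.98 to -0.29 for H1, -1.36 to 0.25 for H2A, -1.61 to 0.052 for H2B, -1.48 to 3.11 for H3 and -1.98 to 1.34 for H4. The cause of these moves was not tested. Depth limits most genes: 1 read in DMSO replicate 2 is worth 0.463 FPKM for Hist1h1b and 0.951 FPKM for the shorter Hist2h2bb, and levels under such a step were not detectable there.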
